A study of Mus musculus with 6 samples.

Results

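The genes described here are 10 receptors and feedback genes of myeloid cytokine signalling, measured in mouse URE leukaemia cells that carried a hairpin against Hlx, a homeobox transcription factor gene, or a control hairpin. They are the receptor chain genes Csf2ra, Il3ra, Il5ra, Csf2rb, Csf2rb2 and Csf3r and the cytokine-induced genes Cish, Socs2, Socs3 and Pim1. A probe set was taken for a gene where the platform annotation gave it that symbol and no other. All 10 genes had at least 1 such probe set, 12 probe sets in all, among 19938 genes measured in this way.

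Receptors for granulocyte-macrophage colony-stimulating factor (GM-CSF), interleukin-3 and interleukin-5 each pair a specific alpha chain with a shared beta chain, and mice carry a second beta chain, encoded by Csf2rb2, that works with the interleukin-3 alpha chain. Binding of the cytokine activates the kinase JAK2, which phosphorylates STAT5, and STAT5 then switches on a set of genes that includes Cish, Socs2 and Pim1. The CISH and SOCS proteins damp receptor signalling, and PIM1 is a serine/threonine kinase that favours survival. The receptor for granulocyte colony-stimulating factor (G-CSF), encoded by Csf3r, signals in good part through STAT3, whose induced genes include Socs3.

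The tested cells had received a lentivirus with a short hairpin directed at Hlx (shHLX, 3 arrays), and the others the same vector with a hairpin directed at luciferase (shControl, 3 arrays). In both groups the vector also encoded a green fluorescent protein, and sorted fluorescent cells supplied the RNA, of which 10 ng was amplified. In both groups the culture medium also held conditioned supernatants of WEHI cells and BHK cells, each at 15% (WEHI supernatant is widely used as a source of interleukin-3), and the medium used after infection held mouse interleukin-3, interleukin-6 and stem cell factor. For both groups the labels give 24 hours for the infection and 10% fetal bovine serum. URE is a single line, known as a myeloid leukaemia line from mice that lack an upstream regulatory element of Spi1, the gene of PU.1. The labels do not give that genotype, nor whether replicates were separate transductions, and the p-values thus cover the spread between these samples alone, which may be technical.

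Values are log2 signals of probe sets from whole cell populations, in which fewer expressing cells and less RNA per cell cannot be told apart. Array medians lay between 7.02 and 7.10, and correlations over all probe sets were 0.994 to 0.997 within groups and 0.992 to 0.995 between them. The second principal component, with 18.1% of the variance, set shHLX 3 (-9.10) and shControl 1 (-9.53) apart from the other 4 arrays. Hlx itself read 10.08, 10.06 and 10.17 on the shHLX arrays, against 10.21, 10.12 and 10.20 on the shControl arrays. The groups overlapped and the log2 change of -0.07 did not pass limma's test (adjusted p = 0.479), so the direction of every comparison rests on the labels. Myeloid identity was checked by 12 measured markers, of which Cd33 and Itgam rose, Kit and Mpo fell and 8 did not pass (33.3% called, beside 6.18% of all genes). Cd33 rose 4.39-fold and Itgam 1.68-fold (limma adjusted p = 4.65e-05 and 0.000615). Mpo fell to 0.363-fold and Kit to 0.604-fold (limma adjusted p = 0.00151 and 6.37e-05). Each of these changes exceeded, on the log2 scale, every change among the 10 genes described here. The granule protease gene Elane averaged 13.95 in shHLX cells and 14.00 in shControl cells, and Spi1 averaged 10.34 in both. Ptprc, which encodes the pan-leukocyte marker CD45, was dim, at 6.06 in shHLX cells and 6.01 in shControl cells, below the 25th percentile of mean signal over all genes (6.13). Cd34 was also below it, at 5.97 in shHLX cells and 6.05 in shControl cells. The markers' summed linear signal ran from 48840 to 49240 in shHLX cells and from 50960 to 52590 in shControl cells. Most of that sum came from the granule protease genes Elane, Prtn3 and Ctsg. The 8 markers that did not pass summed to 45600 to 46070 in shHLX cells and 46420 to 47990 in shControl cells.

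Of the 10 genes, 2 rose, 1 fell and 7 did not pass the test (limma, Benjamini-Hochberg adjusted p under 0.05 over all 19938 genes). Pim1 and Socs2 were higher in shHLX cells and Csf2ra was lower. Over all genes tested 6.18% passed, 3.75% higher and 2.43% lower. The median log2 change of the 10 genes was 0.06, beside -0.01 for all genes. The groups did not overlap for these 3 genes, as for 26.2% of all genes, and 4 of the 10 had an unadjusted p under 0.05, beside 19.4% of all genes.

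Promoter windows are shown for 3 of these genes to set the gene that fell and the one that rose most beside Cish, a classical STAT5 target that did not pass. Each runs from 250 bases before to 50 bases after an annotated transcript start, from RefSeq, build GRCm38.p6, in the table's orientation for the strand given. The windows are chr19:61228369-61228668 (minus strand) for Csf2ra, chr17:29490535-29490834 (plus strand) for Pim1 and chr9:107296409-107296708 (plus strand) for Cish. Capitals mark 2 motifs searched on both strands: TTCNNNGAA, the palindrome that STAT proteins bind, and GAGGAA, a core bound by PU.1 and other ETS factors.
Csf2ra: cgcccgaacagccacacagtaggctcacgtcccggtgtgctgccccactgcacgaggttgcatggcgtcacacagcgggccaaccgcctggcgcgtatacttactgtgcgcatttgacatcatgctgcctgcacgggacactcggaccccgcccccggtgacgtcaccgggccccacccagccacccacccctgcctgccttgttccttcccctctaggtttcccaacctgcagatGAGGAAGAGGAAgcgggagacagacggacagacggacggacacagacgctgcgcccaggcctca
Pim1: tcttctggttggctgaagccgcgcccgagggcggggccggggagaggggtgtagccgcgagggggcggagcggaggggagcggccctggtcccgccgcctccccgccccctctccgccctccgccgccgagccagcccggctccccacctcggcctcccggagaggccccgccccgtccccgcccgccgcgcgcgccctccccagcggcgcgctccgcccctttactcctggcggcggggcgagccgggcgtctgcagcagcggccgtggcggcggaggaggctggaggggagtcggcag
Cish: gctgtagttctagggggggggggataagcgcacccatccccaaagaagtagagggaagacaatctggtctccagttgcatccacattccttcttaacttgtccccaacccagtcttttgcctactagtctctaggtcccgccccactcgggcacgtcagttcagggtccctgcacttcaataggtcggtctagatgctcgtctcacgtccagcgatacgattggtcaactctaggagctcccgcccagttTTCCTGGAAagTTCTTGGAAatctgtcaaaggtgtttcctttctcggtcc
The Cish window held 2 matches to TTCNNNGAA (TTCCTGGAA and TTCTTGGAA), the first of them beginning at the annotated start and the second 11 bases further on. At least 1 match was found in 8.30% of all 32841 windows of this length and 2 or more in 0.457%. The Csf2ra window held 2 adjoining copies of GAGGAA, beginning 14 and 8 bases before the start, where 28.3% of all windows held at least 1 on either strand and 4.82% held 2 or more. This Pim1 window held neither motif. Among the other genes, Csf2rb2 and Socs3 had 1 TTCNNNGAA each in their windows. GAGGAA was found at 2 places in the Csf2rb2 window, both on the opposite strand. Il5ra and Csf3r had 1 GAGGAA each, a second Pim1 window had 1 GAGGAA, and Il3ra had neither. Csf2rb and Socs2 had no entry in the table. These are matches of letters only and do not show binding.

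Among the alpha chains, Csf2ra, whose product gives the GM-CSF receptor its specificity, was the one that fell. Its signal was 10.96, 10.96 and 10.94 on the shHLX arrays, against 11.40, 11.37 and 11.36 on the shControl arrays. All 3 shHLX values lay below all 3 shControl values, and the gap was many times the spread within either group. Csf2ra averaged 10.95 ± 0.013 in shHLX cells and 11.38 ± 0.018 in shControl cells (SD, n = 3 each), a log2 difference of -0.42 with an SE of 0.04 (limma adjusted p = 0.000654), or 0.745-fold (95% confidence interval 0.699 to 0.794). A larger change in either direction was measured for 2.18% of all genes.

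Il3ra, which encodes the alpha chain for interleukin-3, read 9.68, 9.73 and 9.59 on the shHLX arrays, against 9.58, 9.59 and 9.65 on the shControl arrays. The groups overlapped, and the log2 change of 0.06 (95% confidence interval -0.06 to 0.18) did not pass limma's test (adjusted p = 0.561). Il5ra, which encodes the alpha chain for interleukin-5 that is used by eosinophils and some B cells, read 4.68, 4.65 and 4.47 in shHLX cells, against 4.68, 4.55 and 4.67 in shControl cells. These values also overlapped, with a log2 change of -0.03 (-0.19 to 0.13, limma adjusted p = 0.830). The Il5ra signal was also below that 25th percentile (6.13). With no detection values at hand, it is unknown whether this probe set was above background.

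The beta chains did not pass the test. Csf2rb, which encodes the chain shared by all 3 alpha chains, read 11.69, 11.68 and 11.67 on the shHLX arrays, against 11.66, 11.77 and 11.69 on the shControl arrays. The shHLX values lay inside the shControl range, and the log2 change of -0.03 had a 95% confidence interval of -0.13 to 0.08 (limma adjusted p = 0.811). Csf2rb2 read 7.00, 7.07 and 7.03 in shHLX cells, against 6.76, 7.07 and 6.95 in shControl cells, where it had the widest spread of the 10 genes (SD 0.158). Its log2 change of 0.11 (-0.07 to 0.29) did not pass (limma adjusted p = 0.505). The 2 beta chain genes are near neighbours on chromosome 15, with 20078 bases between them, and are closely related in sequence, so a signal of 1 may include RNA of the other, which was not tested.

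Csf2ra was set against its partner chain within each array, where a difference of log2 signals carries no array-wide shift. Csf2ra minus Csf2rb lay between -0.74 and -0.71 on the shHLX arrays and between -0.40 and -0.26 on the shControl arrays. The groups did not overlap, and the change in Csf2ra was lower than that in Csf2rb by a log2 difference of -0.40. Csf2ra minus Il3ra was likewise separate, at 1.24 to 1.35 in shHLX cells and 1.72 to 1.82 in shControl cells. For each of these pairs an exact two-sided permutation test gave p = 0.1, the smallest that 3 arrays against 3 allow, and also 0.1 after adjustment over 5 pairs compared, which were chosen after their values were seen.

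Csf3r, the G-CSF receptor gene of the neutrophil lineage, read 10.62, 10.46 and 10.64 on the shHLX arrays, against 10.70, 10.64 and 10.62 on the shControl arrays. The second shHLX array was the lowest and the groups overlapped. The log2 change of -0.08 (95% confidence interval -0.22 to 0.06) did not pass (limma adjusted p = 0.509).

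**Figure D1:**
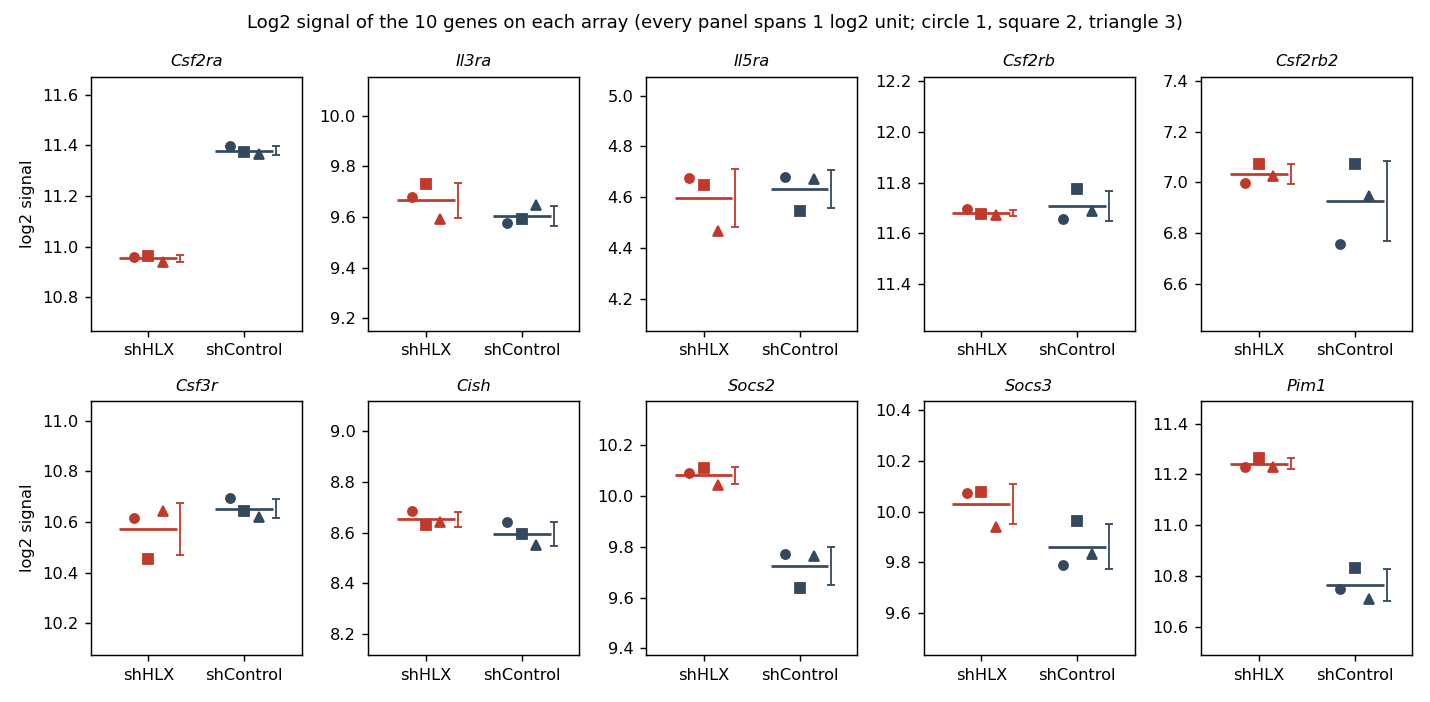
Log2 signal (vertical axis, each panel spanning 1 log2 unit) of the 10 genes on the 3 shHLX arrays (red, left) and the 3 shControl arrays (dark, right), with circles, squares and triangles for replicates 1, 2 and 3, lines for means and bars for ± 1 SD. The groups are separate for Csf2ra (lower in shHLX cells), Socs2 and Pim1 (both higher), and overlap for the other 7 genes.

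Of the cytokine-induced genes, Pim1 rose most. It read 11.23, 11.27 and 11.23 on the shHLX arrays, against 10.75, 10.83 and 10.71 on the shControl arrays, so that every shHLX value was above every shControl value. Pim1 averaged 11.24 ± 0.021 in shHLX cells and 10.76 ± 0.063 in shControl cells (SD, n = 3 each). The log2 difference was 0.48 with an SE of 0.05 (limma adjusted p = 0.000876), or 1.39-fold (95% confidence interval 1.29 to 1.51), and 1.83% of all genes changed by more.

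Socs2, whose product is best known for restraining growth hormone signalling through STAT5, rose as well. Its brighter probe set (10394674) read 10.09, 10.11 and 10.04 on the shHLX arrays, against 9.77, 9.64 and 9.76 on the shControl arrays. The groups were separate, at a log2 difference of 0.36 with an SE of 0.05 (limma adjusted p = 0.00579), or 1.28-fold (95% confidence interval 1.18 to 1.39). A second Socs2 probe set (10372069) read 8.16, 8.15 and 8.24 in shHLX cells, against 7.93, 7.95 and 7.98 in shControl cells. It too was separate between groups, at a smaller log2 difference of 0.23 with an SE of 0.05 (limma adjusted p = 0.0244 with all probe sets tested).

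The 2 Socs2 probe sets differ in their place in the array's numbering. Socs2 lies on chromosome 10, and the second probe set is numbered between those of Cradd and Mrpl42, with 5 of the 6 nearest annotated numbers on chromosome 10. The brighter one is numbered between Gm16497 and Ntsr2, both on chromosome 12, with 0 of its 6 nearest numbers on chromosome 10. Which sequence it reads was not tested, and the second probe set was also higher in shHLX cells.

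Cish, which encodes a STAT5-induced inhibitor of receptor signalling, read 8.68, 8.63 and 8.64 on the shHLX arrays, against 8.64, 8.59 and 8.55 on the shControl arrays. The groups overlapped by a narrow margin, and the log2 change of 0.06 (95% confidence interval -0.05 to 0.16) did not pass (limma adjusted p = 0.543). Compared within arrays, Pim1 minus Cish was 2.55 to 2.64 in shHLX cells and 2.10 to 2.24 in shControl cells. Socs2, read from its brighter probe set, minus Cish was 1.40 to 1.48 in shHLX cells and 1.04 to 1.21 in shControl cells. Both pairs were separate between groups (exact two-sided permutation test, p = 0.1 each and 0.1 adjusted over 5 pairs, the smallest possible). Pim1 and Socs2 were already known to be separate when these pairs were chosen, and the test could not reach 0.05.

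Socs3, which encodes the inhibitor of the G-CSF and interleukin-6 receptors, read 10.07, 10.08 and 9.94 on the shHLX arrays, against 9.79, 9.96 and 9.83 on the shControl arrays. The third shHLX array fell just below the second shControl array. The log2 change of 0.17 (95% confidence interval 0.02 to 0.32) had an unadjusted p of 0.0287 and did not pass after adjustment (limma adjusted p = 0.193). When the variance model followed signal intensity, it passed narrowly (adjusted p = 0.0474, within 0.0474 to 0.922 over the alternatives). Socs2 minus Socs3 was 0.02 to 0.10 in shHLX cells and -0.32 to -0.02 in shControl cells (exact two-sided permutation test, p = 0.1, 0.1 adjusted over 5 pairs, the smallest possible). These differences used the brighter Socs2 probe set (10394674). With the second Socs2 probe set (10372069) in its place, the groups overlapped.

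A second, dimmer Socs3 probe set (10383010) went the other way without passing. It read 8.16, 8.28 and 7.84 in shHLX cells, against 8.20, 8.26 and 8.21 in shControl cells, with shHLX 3 as the lowest array and a log2 change of -0.13 (limma adjusted p = 0.550 with all probe sets tested). Socs3 lies on the minus strand. The dimmer probe set is numbered among genes of the plus strand (4 of 4 neighbours whose strand is known), and the brighter one (10393449) among genes of the minus strand (6 of 6). Whether the dimmer probe set reads the Socs3 transcript was not tested.

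**Figure D2:**
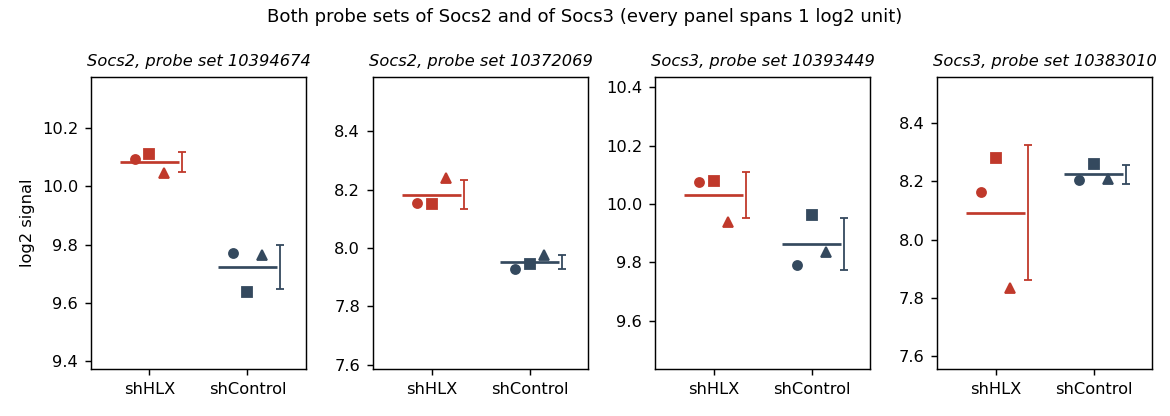
Log2 signal (vertical axis, each panel spanning 1 log2 unit) of both probe sets of Socs2 and both of Socs3 on shHLX arrays (red, left) and shControl arrays (dark, right), with lines for means and bars for ± 1 SD. Both Socs2 probe sets are higher in shHLX cells (log2 changes of 0.36 and 0.23), and those of Socs3 differ in direction (0.17 and -0.13) without passing the test.

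**Figure D3:**
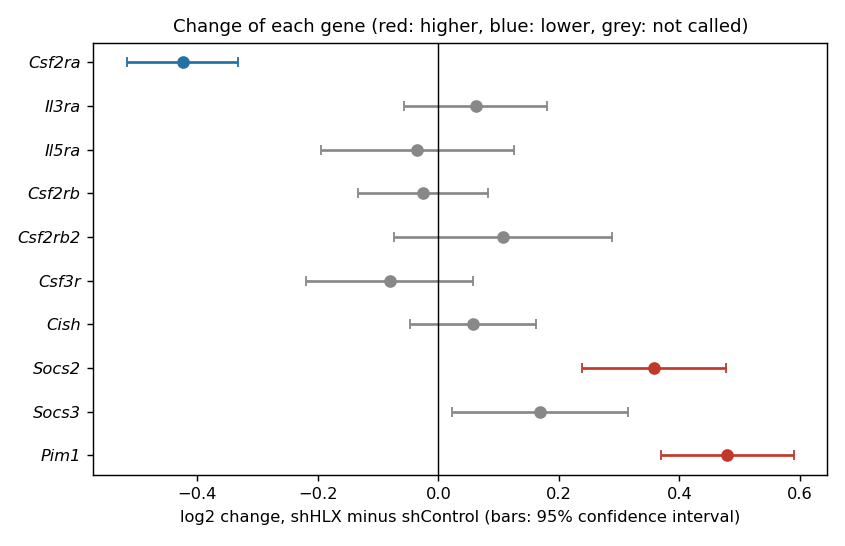
Log2 change, shHLX minus shControl (horizontal axis), of the 10 genes with limma's 95% confidence interval, ordered from receptor chains at the top to cytokine-induced genes at the bottom. The intervals of Csf2ra, Socs2, Socs3 and Pim1 exclude 0, and after adjustment over all genes Csf2ra (-0.42), Socs2 (0.36) and Pim1 (0.48) passed.

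The genes nearest to each of these 3 in their pattern over the 6 arrays were found by the root mean square difference of log2 signals after centring each gene on its mean. For Csf2ra they were Trem1 (difference 0.01), which encodes an activating receptor of myeloid cells, and Cmtm3 (0.02), with log2 changes of -0.42 and -0.44. For Socs2 they were Dnajb13 (0.01) and the adiponectin receptor gene Adipor2 (0.03), with log2 changes of 0.36 and 0.32. For Pim1 they were the urate transporter gene Slc2a9 (0.03) and the ubiquitin ligase gene Smurf1 (0.03), with log2 changes of 0.46 and 0.48. This likeness describes 6 arrays and includes the difference between the groups.

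Of 13 measured genes for JAK kinases, STATs and relay proteins, 2 rose and 0 fell (15.4% called, beside 6.18% of all genes), with a median log2 change of 0.04. Stat4, a STAT best known from lymphocytes responding to interleukin-12, rose 1.24-fold (limma adjusted p = 0.00657). Stat2, a part of the interferon response complex, rose 1.14-fold (limma adjusted p = 0.0392), and it passed in 0 of the 6 fits that each omitted an array (adjusted p 0.0669 to 0.164). The genes of the beta chain's own pathway did not pass. Log2 changes were -0.17 for the kinase gene Jak2, -0.10 for Stat5a and 0.02 for Stat5b (limma adjusted p = 0.156, 0.241 and 0.863). Gab2, an adaptor gene downstream of the beta chain, had a log2 change of 0.15 (limma adjusted p = 0.104). Unadjusted limma p-values were 0.02 for Jak2, 0.0434 for Stat5a and 0.00963 for Gab2. The groups did not overlap for these genes, with Jak2 and Stat5a lower in shHLX cells and Gab2 higher. Over all genes 19.4% had an unadjusted p under 0.05, and the groups did not overlap for 26.2%.

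Of 15 other SOCS, PIM and restraining genes, 0 rose and 1 fell (6.67% called), with a median log2 change of 0.04. Ptpn6, which encodes the phosphatase SHP-1 that switches off cytokine receptors, averaged 10.39 ± 0.020 in shHLX cells and 10.63 ± 0.0093 in shControl cells (SD, n = 3 each). That was 0.846-fold (limma adjusted p = 0.0109), a call lost without shControl 3 (adjusted p = 0.065). The relatives of Pim1 did not pass, with log2 changes of 0.15 for Pim2 and -0.11 for Pim3 (limma adjusted p = 0.215 and 0.284). Neither did Pias3, which encodes an inhibitor of STAT3 (0.17, limma adjusted p = 0.200).

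Other genes known to respond to STAT5 moved in both directions. Of 12 measured, 2 rose and 1 fell (25% called), with 6 log2 changes above 0 and 6 below. The D cyclin gene Ccnd2 rose 1.29-fold and Bcl6, a repressor gene that STAT5 is known to hold down in lymphocytes, rose 1.30-fold (limma adjusted p = 0.00406 and 0.00666). Ccnd3 fell to 0.850-fold (limma adjusted p = 0.0299), and passed in 0 of these 6 fits (adjusted p 0.0625 to 0.106). The survival gene Bcl2 had a log2 change of -0.13 (limma adjusted p = 0.142). Cdkn1a was not measured by a probe set with that symbol alone.

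Of 9 genes that respond to STAT3 downstream of the G-CSF and interleukin-6 receptors, 2 rose and 2 fell (44.4% called), with a median log2 change of 0.02. The acute phase gene Saa3 rose 1.45-fold and the interleukin-4 receptor gene Il4ra rose 1.34-fold (limma adjusted p = 0.00348 and 0.00382). Il4ra is in this list and also among the other cytokine receptors below, and is counted in both. Saa3 was dim, at 6.54 in shHLX cells and 6.01 in shControl cells, near the 25th percentile of mean signal (6.13). Cebpd, the gene of a transcription factor induced by G-CSF, fell to 0.836-fold, lost without shHLX 1 (adjusted p = 0.0508). Bcl3, a gene of the NF-kB inhibitor family, fell to 0.823-fold, a call kept in 1 of 6 fits that each left out an array (adjusted p 0.0436 to 0.133). With all arrays their limma adjusted p were 0.00981 and 0.0347.

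Other cytokine receptors held the largest change among these pathway genes. Of 22 measured, 5 rose and 1 fell (27.3% called), with a median log2 change of 0.02. Ghr, the growth hormone receptor gene, whose signal runs through JAK2 and STAT5, averaged 11.49 ± 0.038 in shHLX cells and 10.60 ± 0.064 in shControl cells (SD, n = 3 each), a 1.85-fold rise (limma adjusted p = 4.65e-05). Il4ra (1.34-fold), Il10rb (1.21-fold), Il13ra1 (1.17-fold) and Ifnar1 (1.14-fold) also rose, and Il27ra fell to 0.741-fold. Ghr and Il4ra passed whichever array was left out. Il10rb was lost without shControl 3 (adjusted p = 0.055), Il13ra1 and Il27ra passed in 1 of 6 such fits (adjusted p up to 0.112 and 0.122), and Ifnar1 in 0 of 6 (0.0814 to 0.181). Of 7 measured ligand genes, Csf2, Il3, Il5, Csf3, Il6, Epo and Tslp, 0 passed limma's test. Tslp alone had an unadjusted p under 0.05 (log2 change -0.43, adjusted p = 0.149, SD 0.319 between shControl arrays). Csf2, Il3, Il5, Il6 and Epo averaged below the 25th percentile of mean signal (6.13) in both groups. Whether these probe sets were above background is unknown.

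**Figure D4:**
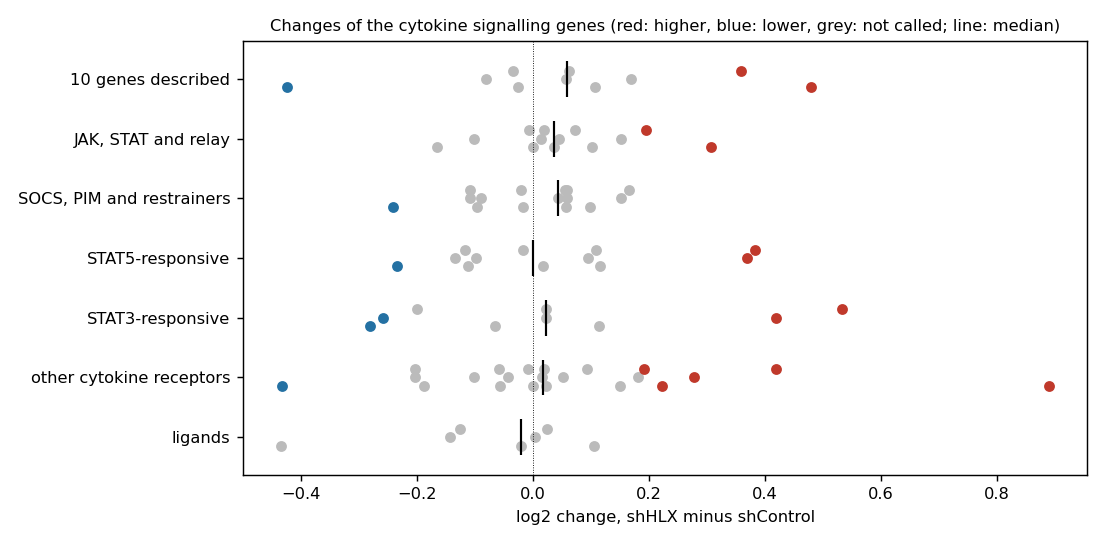
Log2 change, shHLX minus shControl (horizontal axis), of the 10 genes described and of 6 lists of cytokine signalling genes, with a point per measured gene (red higher and blue lower at an adjusted p under 0.05, grey not called) and a line at each median. Medians lie between -0.02 and 0.06, and Ghr at 0.89 is the point farthest from 0.

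Markers of cells that use these receptors were read beside the results. Of 6 eosinophil markers, among them Prg2 and Epx, 0 passed. Their summed linear signal was 468.6 to 493.3 in shHLX cells and 490.1 to 531.2 in shControl cells. Prg2, Epx and Ccr3 averaged below the 25th percentile of mean signal (6.13) in both groups, and the other measured eosinophil markers above it. Whether these markers were above background is unknown. Of 10 mast cell and basophil markers 0 passed (1417 to 1448 in shHLX cells, 1481 to 1591 in shControl cells). These sums did not overlap, and 9 of the log2 changes were below 0 and 1 above. Gata2 (-0.33) and Ms4a2 (-0.25) had an unadjusted limma p under 0.05 (20% of the list, beside 19.4% of all genes). Cpa3, Ms4a2, Fcer1a and Cma1 averaged below that percentile in both groups. Of 9 mature neutrophil markers Cxcr2 rose and S100a8 fell (940.9 to 952.5 in shHLX cells, 1278 to 1463 in shControl cells). Cxcr2 passed in 0 of 6 fits with an array omitted (adjusted p 0.0587 to 0.101). It was also dim, at 5.37 in shHLX cells and 5.17 in shControl cells, below that percentile. The 7 neutrophil markers that did not pass summed to 512.7 to 544.5 in shHLX cells and 509.1 to 519.5 in shControl cells. Of 8 monocyte and macrophage markers Lyz2 rose (13080 to 13470 in shHLX cells, 10050 to 10540 in shControl cells), and nearly all of that sum was Lyz2. The other 7 summed to 929.9 to 1012 in shHLX cells and 963.6 to 1020 in shControl cells. Of the lymphoid (9 measured) and the erythroid and megakaryocyte markers (7 measured) 0 passed, and of 9 stromal and endothelial markers Cdh5 fell. Sums for these were 759.9 to 865.8, 832.5 to 884.4 and 929.3 to 1039 in shHLX cells, against 804.8 to 892.8, 903.9 to 921.5 and 1678 to 1696 in shControl cells. Without Cdh5 the last of these was 799.7 to 918.6 in shHLX cells and 858.2 to 951.6 in shControl cells. The lymphoid markers Cd3g, Cd79a, Ms4a1 and Rag1 averaged below the 25th percentile of mean signal in both groups. Sums without the genes that passed leave out genes picked by the same test on these arrays. They cannot show whether the mix of cells was the same. The part of these shifts in the changes of Csf2ra, Socs2 and Pim1 was not tested.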

How the data were processed

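A single table held the deposited log2 signals, 35556 probe sets on 6 Affymetrix arrays. Per the submitters' processing notes the authors used RMA and Affymetrix Power Tools, version 1.178. Genome build and probe set definitions: not given in the sources used here. Detection values were not used.

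The 21789 probe sets with exactly 1 symbol in the platform annotation were kept, and the brightest by mean stood for a gene with several. This gave 19938 genes, dim ones included. Linear models were fitted with limma 3.58.1 under R 4.3.3 (lmFit, then eBayes) without covariates. Tests were two-sided, and p-values were adjusted over all genes by Benjamini-Hochberg, with 0.05 as threshold. All adjusted p-values are limma's unless stated. Folds are ratios of signals, which tend to understate the change of dim genes. Precision is limited by the number of arrays. The median gene had an SD of 0.0728 between replicates. The code was tested on simulated data.

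The members, gene lists and tests were chosen with earlier results of these data known. Genes named are all members, up to 4 of each list by smallest p, the 2 nearest in pattern to each called member, and Hlx. Others were chosen after their values were seen. Alternatives covered normalization, dim genes, the variance model, probe sets, the replicate number and leaving out arrays. Promoter letters come from RefSeq. Plots were made with Python 3.11.15 and matplotlib 3.10.9.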

Additional observations from a re-analysis of the deposited data

How the results depend on the processing

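Csf2ra, Socs2 and Pim1 kept their direction and passed limma's test under all 18 alternatives, with log2 changes of -0.45 to -0.41, 0.23 to 0.40 and 0.45 to 0.51 and adjusted p up to 0.00936, 0.0452 and 0.0166. The count of the 10 genes that passed was 3 under each alternative but the intensity trend, where Socs3 (0.17, adjusted p = 0.0474) made it 4. With 1 array left out it was 3 to 3. Leaving out shHLX 3 and shControl 1 together, chosen after seeing the data, also gave 3. Among genes that did not pass, signs turned with 1 array left out for Csf2rb (-0.0502 to 0.00767, above 0 without shControl 2) and Il5ra (-0.0781 to 0.0306, above 0 without shHLX 3), for Il5ra without both arrays named above (0.0540), and for Socs3 read from its second probe set (-0.13). Il5ra was removed by both filters on dim genes, and Csf2rb2 by the one at the median, so they had no value there.

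The count of all genes called, 1233, was 2064 among genes at or above the median of mean signal, where fewer genes were tested, 2261 with the intensity trend and 741 without both arrays named above. It was 698 to 901 with 1 array left out, with 766 without shHLX 1, 806 without shControl 2 and 698 without shControl 3. With the replicate number as a block it was 800, and the 3 members still passed. Same-numbered arrays did not deviate together (correlations -0.17, 0.13 and -0.15), and 0 of 6 arrays correlated best with their own number in the other group, so the numbers were not taken as pairs. The cause of these shifts was not tested. Without detection values, dim genes such as Il5ra could not be told from background.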
